A study of Homo sapiens with 27 samples.

Results

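The desmosome genes examined here were the plakophilins PKP1, PKP2, PKP3 and PKP4, desmoplakin (DSP), the desmosomal cadherins DSG2, DSC2 and DSC3, plakoglobin (JUP) and PERP, 10 of the 57773 identifiers in the count table. PKP2 was selected on its values in these data, namely lower counts in the sgKDM5C and sgKDM5D single mutant populations than in sgCtrl, so those values are given as a description with no test. The other 9 genes were listed for their function. All 27 libraries came from 786-O, an established clear cell renal cell carcinoma (ccRCC) line. The cells were populations, not clones, given Cas9 and 1 or 2 guide RNAs by lentivirus. Whether the 2 guides of a double mutant came on the same virus is not stated. There were 9 populations with 3 replicates each: the control population sgCtrl, single mutants made with guide #4 or #5 to KDM5C (sgKDM5C) or with guide #2 or #4 to KDM5D (sgKDM5D), and the 4 double mutants that combined a sgKDM5C with a sgKDM5D guide. All populations, sgCtrl included, carried Cas9. Nothing says that replicates came from separate cultures, so p-values measure the spread between these samples, which may be technical.

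KDM5C and KDM5D are related demethylases of lysine 4 of histone H3, encoded on the X and the Y chromosome. A desmosome is a spot-like junction that ties the keratin filaments of neighbouring epithelial cells together. In it the cadherins, desmogleins and desmocollins, cross the membrane and bind those of the next cell, the armadillo proteins plakoglobin and plakophilins line the inner face, and desmoplakin links them to the filaments. PERP is a tetraspan membrane protein needed for desmosome assembly in skin. PKP2, DSP, DSG2 and DSC2 are the set used in simple epithelia and in heart muscle, whereas PKP1, DSC3, DSG1 and DSG3 belong mainly to stratified epithelia.

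Total counts ran from 20172482 to 43383929 per library, and the median library had 26290323. KDM5C mRNA fell in all 6 populations that carried a sgKDM5C guide, by 1.51 to 1.91 on the log2 scale. KDM5D mRNA was higher than in sgCtrl in all 8 mutant populations, by 0.64 to 1.80 on the log2 scale, so the mRNA counts gave no check of the sgKDM5D labels (other measurements of the study were not used here), and each direction given below for a population with a sgKDM5D guide rests on its label. Of the renal markers, PAX8 (281 to 367 CPM as population means) and VIM (1568 to 1957 CPM) were high in all populations, while CA9, a hypoxia target usual in ccRCC, reached no more than 0.196 CPM. CPM is the count scaled to a common library size with TMM factors. The summed level of 6 keratinocyte markers lay between 0.116 and 0.991 CPM over the populations, and that of 4 cardiac markers between 0.0712 and 0.243 CPM. For the fibroblast markers COL1A1, LUM, DCN and PDGFRA it lay between 4.40 and 8.17 CPM in 8 populations and reached 15.5 CPM in the population labelled sgKDM5D #4. COL1A1 ranged from 2.81 to 13.8 CPM and LUM from 0.593 to 3.49 CPM over the populations, and DCN and PDGFRA reached 0.148 and 0.0254 CPM. The endothelial and the immune markers, each list taken by itself, summed to no more than 0.495 CPM. No 2 libraries of a population agreed within sampling noise (chi-square over its degrees of freedom at least 4.07). The study's table lists 4 libraries after all others (sgCtrl replicate 2, sgKDM5C #5 replicate 2, sgKDM5C #4/sgKDM5D #2 replicate 1 and sgKDM5C #4/sgKDM5D #4 replicate 3). A term for them passed an adjusted p under 0.05 in 4584 of 17016 genes, so results that changed without them are given with both values.

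Levels were first compared between genes as CPM per kilobase of merged exons. In sgCtrl the order was DSG2 at 22.5 ± 0.827 (SD, n = 3), PKP4 at 16.4 ± 0.789, PERP at 15.4 ± 2.46 and PKP3 at 6.78 ± 0.481, followed by PKP2 at 0.629 ± 0.0431, JUP at 0.455 ± 0.0161, DSP at 0.0318 ± 0.0108 and DSC2 at 0.00811 ± 0.00639. PKP4 and PERP overlapped between libraries, and every other pair of neighbours in that order down to DSC2 was separate. The cells therefore had abundant transcripts of 1 desmoglein, 2 plakophilins and PERP, and little of the genes for the partners DSP, JUP and DSC2. Over the 9 populations PKP3 was always the fourth gene in the order, whereas the rank of PKP2 lay between 5 and 8, that of DSP between 6 and 9 and that of DSC2 between 5 and 10. PKP1 had 36 counts and DSC3 6 counts in all 27 libraries, and PKP1 reached at most 6 counts in a library and DSC3 2. Both genes had 0 counts in sgCtrl, which with a floor of 3 counts allows up to 0.103 to 0.130 CPM in its libraries. They did not reach the 120 counts required for a test, so 8 of the 10 genes were tested, 7 of them besides PKP2.

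**Figure D1:**
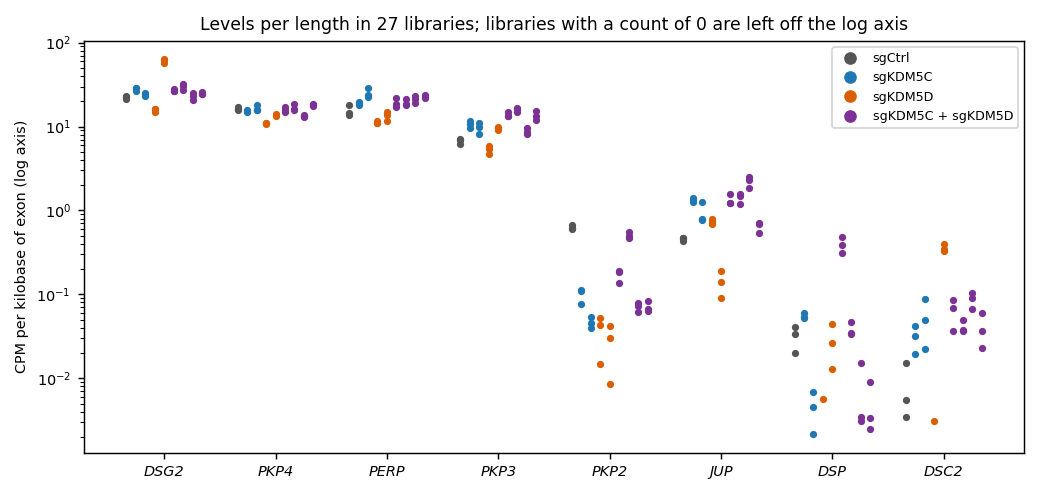
Level of 8 desmosome genes in each library, as CPM per kilobase of exon on a log axis, with 1 point per library coloured by genotype and the populations of a gene side by side in the order sgCtrl, sgKDM5C #4 and #5, sgKDM5D #2 and #4 and the 4 double mutants. DSG2, PKP4, PERP and PKP3 form an abundant group, and PKP2, JUP, DSP and DSC2 lie lower and spread over a wider range. The 4 values of 0 are left off.

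PKP2 (ENSG00000057294, chromosome 12, 32943679 to 33049732 of GRCh37, minus strand), the plakophilin of simple epithelia and heart muscle, had counts of 161, 185 and 159 in the 3 sgCtrl libraries. It had 28, 50 and 21 counts in sgKDM5C #4 and 10, 14 and 18 in sgKDM5C #5. In the libraries labelled sgKDM5D #2 there were 4, 10 and 14 counts, and in those labelled sgKDM5D #4 there were 2, 9 and 10. None of the 12 single mutant libraries came near sgCtrl, and these are the values for which PKP2 was chosen. As CPM, the means were 6.48 ± 0.443 (SD, n = 3) in sgCtrl, 1.03 ± 0.212 and 0.477 ± 0.0708 in sgKDM5C #4 and #5, and 0.378 ± 0.200 and 0.277 ± 0.173 in sgKDM5D #2 and #4. The fitted log2 fold changes against sgCtrl were -2.63 and -3.75 in sgKDM5C #4 and #5 and -4.09 and -4.50 in sgKDM5D #2 and #4.

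The double mutant libraries were not used to choose PKP2, although the sgCtrl libraries they are compared with were. PKP2 had 42, 54 and 44 counts in sgKDM5C #4/sgKDM5D #2 and 160, 144 and 166 in sgKDM5C #4/sgKDM5D #4. With guide sgKDM5C #5 it had 22, 15 and 17 counts together with sgKDM5D #2 and 21, 15 and 19 together with sgKDM5D #4. The populations with sgKDM5C #4 were thus the ones with more PKP2, and sgKDM5C #4/sgKDM5D #4 had by far the most. Its mean of 5.22 ± 0.469 CPM (SD, n = 3) lay 0.31 below sgCtrl on the log2 scale (standard error 0.18, 95% interval -0.68 to 0.06, adjusted p = 0.19, from the quasi-likelihood test of edgeR, adjusted by Benjamini-Hochberg across 17016 genes). Its libraries, at 4.85 to 5.75 CPM, did not overlap those of sgCtrl, at 6.12 to 6.97 CPM. PKP2 fell against sgCtrl in the other 3 double mutant populations, by 1.88 in sgKDM5C #4/sgKDM5D #2 (adjusted p = 7.4e-08), by 3.14 in sgKDM5C #5/sgKDM5D #2 (adjusted p = 6.1e-11) and by 3.15 in sgKDM5C #5/sgKDM5D #4 (adjusted p = 5.6e-11) on the log2 scale. Over the 4 double mutant populations together PKP2 fell by 2.12 on the log2 scale (standard error 0.15, adjusted p = 1.7e-11), a contrast in which 7.08% of all genes were called. That standard error comes from the spread between libraries within populations. It leaves out the spread between the 4 populations, whose log2 fold changes ran from -0.31 to -3.15. Because the sgCtrl libraries also served to choose PKP2, these p-values against sgCtrl are not independent of the choice. Genes are named as called when their adjusted p was below 0.001 and they differed by over 1.5-fold.

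Comparisons among the double mutant populations used no library on which PKP2 was selected. Of 6 pairs, 5 were called. PKP2 was higher in sgKDM5C #4/sgKDM5D #4 than in sgKDM5C #4/sgKDM5D #2 by 1.57 on the log2 scale (standard error 0.20, adjusted p = 4.2e-06), in a contrast where 2.69% of genes were called. Against sgKDM5C #4/sgKDM5D #4, both populations with guide sgKDM5C #5 were lower, at a log2 difference of -2.83 with sgKDM5D #2 (adjusted p = 4.4e-10, 10.4% of genes called) and of -2.84 with sgKDM5D #4 (adjusted p = 3.9e-10, 8.61% of genes called). Against sgKDM5C #4/sgKDM5D #2 the differences were smaller, at -1.26 with sgKDM5D #2 (adjusted p = 0.00044, 8.82% of genes called) and -1.27 with sgKDM5D #4 (adjusted p = 0.00083, 4.44% of genes called). The 2 populations with guide sgKDM5C #5 differed from each other by -0.0031 on the log2 scale (95% interval -0.62 to 0.62, adjusted p = 0.99, 8.7% of genes called). Without replicate 2 or without replicate 3 of sgKDM5C #4/sgKDM5D #2, 3 of the 6 pairs were called, and without the 4 libraries listed last 4 were. By mean level the order was sgCtrl, sgKDM5C #4/sgKDM5D #4, sgKDM5C #4/sgKDM5D #2, sgKDM5C #4, sgKDM5C #5/sgKDM5D #2, sgKDM5C #5/sgKDM5D #4, sgKDM5C #5, sgKDM5D #2 and last sgKDM5D #4. The libraries of the first 4 did not overlap between neighbours, and those of sgKDM5C #5 lay under both double mutants that carry its guide. The other 4 pairs of neighbours overlapped. The interaction for PKP2, double mean minus the means of both single genotypes plus sgCtrl, was 5.36 on the log2 scale, a value given with no test because it uses the single mutant libraries. The single genotype means were at -3.19 (sgKDM5C) and -4.29 (sgKDM5D) against sgCtrl. Both falls added together would put PKP2 under the floor of 3 counts. A positive value was therefore favoured in advance by the limit of detection and by the choice of PKP2.

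**Figure D2:**
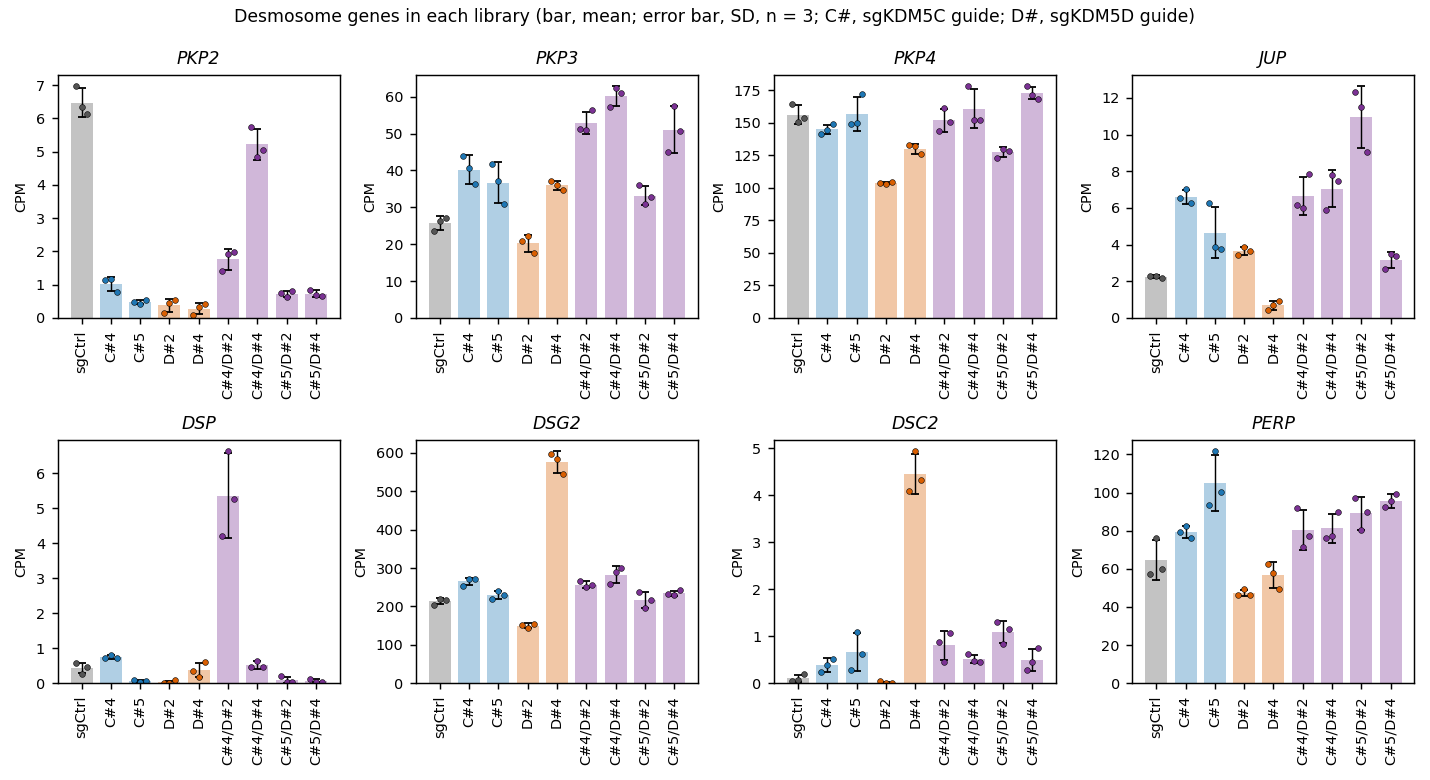
CPM of the 8 tested desmosome genes in each library (points), with the population mean (bar, axis from 0) and SD (n = 3). PKP2 in sgKDM5C #4/sgKDM5D #4 reached 5.22 CPM beside 6.48 in sgCtrl, DSP stood out in sgKDM5C #4/sgKDM5D #2 and DSG2 and DSC2 in the population labelled sgKDM5D #4.

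PKP2 lies in a stretch of chromosome 12 with few tested genes, and the genes beside it did not have its low values. The 5 tested genes before it were BICD1, FGD4, DNM1L, ENSG00000257511 and YARS2, and the 5 after it were ALG10, ENSG00000255628, ALG10B, CPNE8 and CPNE8-AS1. YARS2, the nearest of them, which encodes the mitochondrial tyrosyl-tRNA synthetase, had log2 fold changes of -0.35 to 0.17 over the 8 populations. DNM1L, which encodes the dynamin-related protein of mitochondrial fission, had -0.63 to 0.18. The median log2 fold change of the 50 nearest tested genes lay between -0.15 and 0.08. In the 4 single mutant populations, whose low values PKP2 was chosen for, none of those 50 genes was as low. Among the double mutants, none was as low in sgKDM5C #5/sgKDM5D #4, in sgKDM5C #4/sgKDM5D #2 and sgKDM5C #5/sgKDM5D #2 CNTN1 was lower (-2.94 and -3.79), and in sgKDM5C #4/sgKDM5D #4, where PKP2 was near its control level, 12 were lower. With that median subtracted, the mean change of PKP2 in the double mutants was -2.06 on the log2 scale (adjusted p = 3.2e-11). This p-value also uses the sgCtrl libraries that served to choose PKP2, and it leaves out the spread between the double mutant populations.

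**Figure D3:**
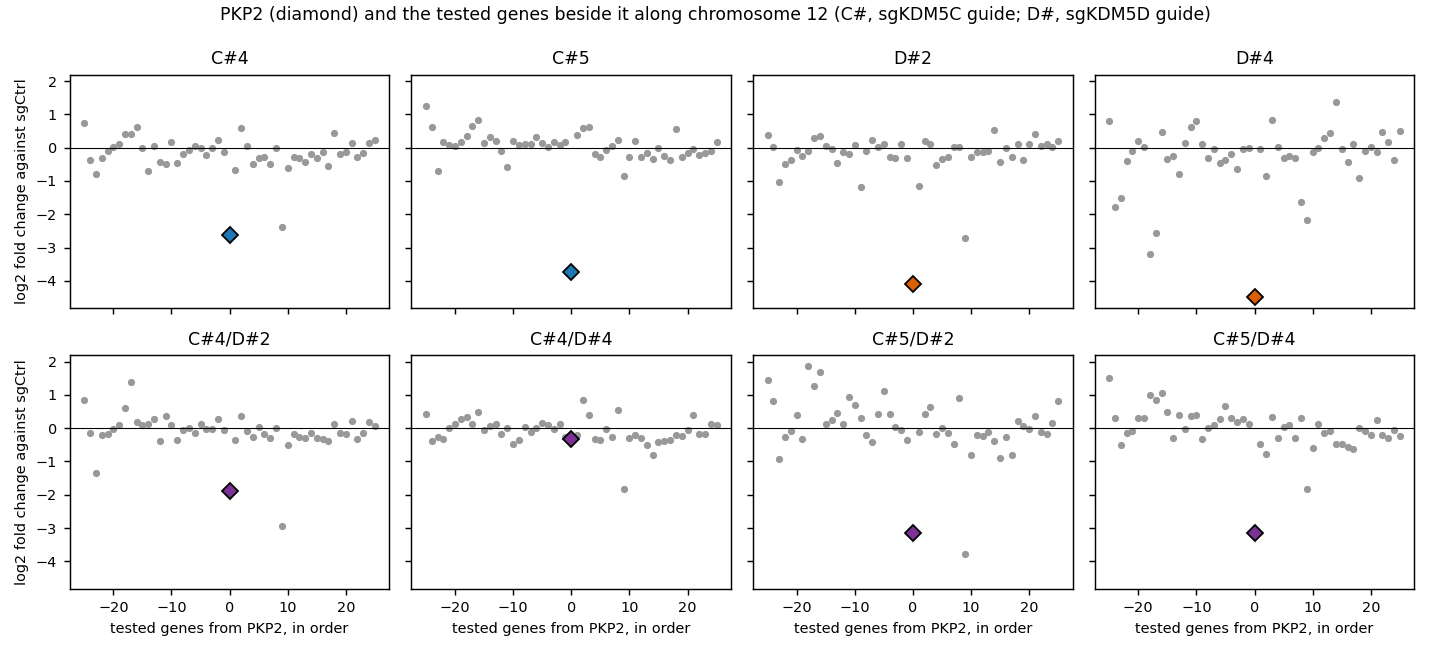
Log2 fold change against sgCtrl of PKP2 (diamond) and of the 25 tested genes on each side of it (grey), by their order along the chromosome, in the 8 mutant populations. PKP2 stands below YARS2 and ALG10, the nearest genes on each side, in all 8 populations, by little in sgKDM5C #4/sgKDM5D #4, and the low grey point at position 9 is CNTN1.

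The other plakophilins had no such low values. PKP3 (chromosome 11, 392614 to 404908), which can bind all desmosomal cadherins, was at 23.7, 26.4 and 27.2 CPM in the sgCtrl libraries and at 57.2, 62.4 and 61.0 CPM in sgKDM5C #4/sgKDM5D #4, where it was highest. It rose in 3 double mutant populations, by 1.22 on the log2 scale in sgKDM5C #4/sgKDM5D #4 (standard error 0.11, adjusted p = 9.0e-10), 1.04 in sgKDM5C #4/sgKDM5D #2 (adjusted p = 2.4e-08) and 0.99 in sgKDM5C #5/sgKDM5D #4 (adjusted p = 5.2e-08), and in sgKDM5C #4 by 0.64 (adjusted p = 5.0e-05). The call in sgKDM5C #4 was lost without sgCtrl replicate 1 (0.58, adjusted p = 0.00079) and without sgKDM5C #4 replicate 1 (0.57, adjusted p = 0.00073). In the population labelled sgKDM5D #2 the PKP3 libraries lay below those of sgCtrl, with a log2 fold change of -0.35 (adjusted p = 0.020). PKP4 (chromosome 2, 159313464 to 159539391), a plakophilin-related armadillo protein also found at adherens junctions, was the steadiest of the 8, at 104 to 173 CPM as population means. With the label sgKDM5D #2 it fell by 0.59 on the log2 scale (adjusted p = 4.3e-07), just past the 1.5-fold limit. All its libraries in sgKDM5C #5/sgKDM5D #2 and in the population labelled sgKDM5D #4 also lay below those of sgCtrl. Their log2 fold changes, -0.30 with adjusted p = 0.00070 and -0.26 with adjusted p = 0.0017, were short of 1.5-fold. The libraries of sgKDM5C #4 lay below sgCtrl as well (-0.11, adjusted p = 0.26). Those of sgKDM5C #5/sgKDM5D #4 lay above sgCtrl (0.14, adjusted p = 0.11). In sgKDM5D #2 the median of the 50 genes beside PKP4 was -0.33. With that subtracted the change was -0.26 (adjusted p = 0.0071), which is no call, and without sgCtrl replicate 1 it was -0.56, short of 1.5-fold.

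JUP, plakoglobin (ENSG00000173801, chromosome 17, 39910856 to 39943183), which serves in desmosomes and in adherens junctions, was at 2.30, 2.29 and 2.16 CPM in sgCtrl. It reached 12.3, 11.5 and 9.06 CPM in sgKDM5C #5/sgKDM5D #2 and only 0.446, 0.700 and 0.942 CPM in the population labelled sgKDM5D #4. These libraries lay wholly above and wholly below those of sgCtrl. JUP rose in 5 populations, by 2.29 on the log2 scale in sgKDM5C #5/sgKDM5D #2 (standard error 0.18, adjusted p = 2.5e-10), 1.65 in sgKDM5C #4/sgKDM5D #4 (adjusted p = 9.9e-08), 1.56 in sgKDM5C #4/sgKDM5D #2 (adjusted p = 4.6e-07), 1.56 in sgKDM5C #4 (adjusted p = 5.0e-07) and 1.02 in sgKDM5C #5 (adjusted p = 0.00026). In the population labelled sgKDM5D #4 it fell by 1.68 on the log2 scale (standard error 0.26, adjusted p = 4.3e-06). In sgKDM5D #2 and sgKDM5C #5/sgKDM5D #4 the values were 0.69 (adjusted p = 0.013) and 0.50 (adjusted p = 0.065). The call in sgKDM5C #5 was lost without the 4 libraries listed last (1.13, adjusted p = 0.0016), without any one of sgCtrl replicates 1, 2 and 3 (adjusted p = 0.0017, 0.0014 and 0.0023) and without sgKDM5C #5 replicate 1 (0.76, adjusted p = 0.0035). That replicate, at 6.24 CPM, stood above the other two at 3.89 and 3.78.

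DSP encodes desmoplakin, the link to the keratin filaments (ENSG00000096696, chromosome 6, 7541571 to 7586947). It had 13, 8 and 12 counts in the sgCtrl libraries but 126, 187 and 117 in sgKDM5C #4/sgKDM5D #2, where it rose by 3.64 on the log2 scale (standard error 0.32, adjusted p = 1.4e-09). Those 3 libraries, at 4.21, 6.62 and 5.26 CPM, were above all 24 others, the highest of which was at 0.814 CPM. In sgKDM5C #4 it had 18 to 35 counts and a log2 fold change of 0.83 (adjusted p = 0.11), and in sgKDM5C #4/sgKDM5D #4 it had 13 to 19 counts and 0.29 (adjusted p = 0.62). With guide sgKDM5C #5 it was near the limit of detection, with 5 counts over 3 libraries alone (-2.80, adjusted p = 0.0013), 8 together with sgKDM5D #2 (-1.94, adjusted p = 0.0066) and 5 together with sgKDM5D #4 (-2.60, adjusted p = 0.0022). The population labelled sgKDM5D #2 had 2 DSP counts in all, in 1 library, and was called lower (adjusted p = 0.00061). The level in sgCtrl was 15.7 times that level, with an exact 95% interval of 4.02 to 135 that covers counting error only. This call was lost with DESeq2 (adjusted p = 0.0022) and without sgCtrl replicate 1 (adjusted p = 0.0032), sgCtrl replicate 3 (adjusted p = 0.0026), sgKDM5D #2 replicate 1 (adjusted p = 0.0061) or sgKDM5D #2 replicate 2 (adjusted p = 0.0043). In the population labelled sgKDM5D #4 DSP had 5 to 14 counts, within the spread of sgCtrl. In sgKDM5C #4/sgKDM5D #2 the tested genes on each side of DSP, RIOK1 and SNRNP48, had log2 fold changes of 0.21 and 0.03, and BMP6, the next after SNRNP48 and at 0.0273 CPM in sgCtrl, had 3.87. BMP6 had 5.30 in sgKDM5C #4/sgKDM5D #4, where DSP was near its level in sgCtrl.

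The cadherins DSG2 (29078140 to 29128971, plus) and DSC2 (28638806 to 28682485, minus) lie on opposite strands of chromosome 18. They are next to each other among the tested genes only, and their first bases on the chromosome are 439 kb apart. DSC3 (28569331 to 28622781, minus) lies beyond DSC2. DSG2, the desmoglein of simple epithelia, was at 204, 220 and 216 CPM in sgCtrl and at 598, 585 and 545 CPM in the population labelled sgKDM5D #4, where it rose by 1.43 on the log2 scale (standard error 0.07, adjusted p = 1.5e-15). In the population labelled sgKDM5D #2 it was at 152, 143 and 154 CPM, below all sgCtrl libraries, with a log2 fold change of -0.51 (adjusted p = 4.8e-06) that was short of 1.5-fold. The 2 sgKDM5D populations thus lay on opposite sides of sgCtrl. In the other 6 populations its log2 fold changes were 0.02 to 0.41.

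DSC2, the matching desmocollin, had 1, 2 and 5 counts in sgCtrl and 92, 141 and 101 in the population labelled sgKDM5D #4, where it rose by 5.39 on the log2 scale (standard error 0.44, adjusted p = 1.0e-10). In the population labelled sgKDM5D #2 it had 1 count in all 3 libraries. The ratio between those 2 populations was 335, with an exact 95% interval of 59.7 to 13261. DSC2 also rose in sgKDM5C #5 (2.72, adjusted p = 0.00062), sgKDM5C #4/sgKDM5D #2 (2.90, adjusted p = 0.00025) and sgKDM5C #5/sgKDM5D #2 (3.37, adjusted p = 9.9e-06), where it had 63, 63 and 82 counts over 3 libraries. In sgKDM5C #4, sgKDM5C #4/sgKDM5D #4 and sgKDM5C #5/sgKDM5D #4, with 37 to 46 counts, all libraries lay above sgCtrl and the log2 fold changes were 1.89 to 2.27, but the adjusted p of 0.024, 0.0032 and 0.0050 did not pass. Without the 4 libraries listed last the calls in sgKDM5C #5 (1.90, adjusted p = 0.052) and sgKDM5C #4/sgKDM5D #2 (2.57, adjusted p = 0.0050) were lost. Each was also lost without sgCtrl replicate 1 (adjusted p = 0.0058 and 0.0025) and without sgCtrl replicate 2 (adjusted p = 0.0059 and 0.0029). The first was lost without sgKDM5C #5 replicate 2 (adjusted p = 0.012) or 3 (adjusted p = 0.0015), and the other without replicate 1 (adjusted p = 0.0015) or 3 (adjusted p = 0.0020) of its own population. In the population labelled sgKDM5D #4 the 50 tested genes beside DSC2 had a median log2 fold change of 0.0023, and CDH2, the N-cadherin gene and nearest tested gene on the side away from DSG2, had 0.25. That population also had the highest fibroblast marker sum (15.5 CPM), of which COL1A1 gave 13.8 CPM. LUM, DCN and PDGFRA were highest in other populations. The part of these markers in the DSG2 and DSC2 values was not tested.

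PERP (chromosome 6, 138409642 to 138428556) was at 57.2, 76.4 and 60.1 CPM in sgCtrl and at 93.3, 122 and 100 CPM in sgKDM5C #5, where it rose by 0.70 on the log2 scale (standard error 0.11, adjusted p = 3.2e-05). This was its only call. The 50 genes beside it had a median of 0.39 there, and with that subtracted the change was 0.31 (adjusted p = 0.061). The call was also lost without sgCtrl replicate 1 (0.61, adjusted p = 0.0011) and without sgKDM5C #5 replicate 2 (0.56, adjusted p = 0.0011). PERP differed between the 4 libraries listed last and the rest by 0.31 on the log2 scale (adjusted p = 7.6e-05), the only one of the 8 genes with an adjusted p under 0.05 for that term. In the double mutants its log2 fold changes were 0.31 to 0.57, with no call, and in the populations labelled sgKDM5D #2 and #4 they were -0.45 and -0.19.

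**Figure D4:**
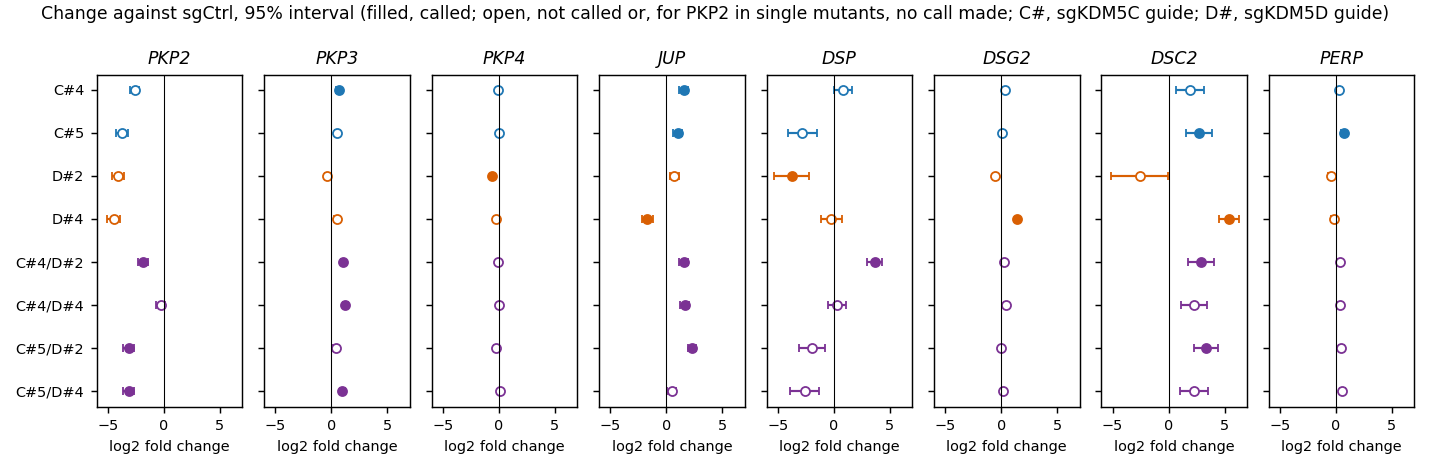
Log2 fold change of each tested desmosome gene against sgCtrl in the 8 mutant populations, with 95% intervals from the fit. Filled points passed an adjusted p under 0.001 and 1.5-fold. JUP and DSC2 lie to the right in most populations, and DSP and DSC2 have the widest intervals. PKP2 lies to the left in all 8. Among its double mutant intervals, only that of sgKDM5C #4/sgKDM5D #4 reaches 0. PKP2 was chosen for its single mutant values, so their points are open and their intervals are no test.

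In all, the 7 tested genes other than PKP2 gave 19 calls over the 8 populations. For the single mutants these were 2 of 7 genes in sgKDM5C #4 (PKP3 and JUP higher) beside 4.98% of all tested genes, 3 in sgKDM5C #5 (DSC2, JUP and PERP higher) beside 5%, 2 in the population labelled sgKDM5D #2 (PKP4 and DSP lower) beside 3.23%, and 3 in the population labelled sgKDM5D #4 (DSG2 and DSC2 higher, JUP lower) beside 18.1%. For the double mutants they were 4 in sgKDM5C #4/sgKDM5D #2 (PKP3, DSP, DSC2 and JUP higher) beside 6.06%, 2 in sgKDM5C #4/sgKDM5D #4 (PKP3 and JUP higher) beside 9.1%, 2 in sgKDM5C #5/sgKDM5D #2 (DSC2 and JUP higher) beside 12.7%, and 1 in sgKDM5C #5/sgKDM5D #4 (PKP3 higher) beside 7.18%. All 14 calls in the sgKDM5C single and the double mutant populations were increases, and both calls in the population labelled sgKDM5D #2 were decreases. With 7 genes, the single call in sgKDM5C #5/sgKDM5D #4 is the smallest count above 0 and says little about the group. The median log2 fold change of the 7 genes was 0.64 and 0.51 in sgKDM5C #4 and #5, -0.51 and -0.19 in sgKDM5D #2 and #4, and 0.37 to 1.04 in the double mutants, while the median of all genes lay between -0.01 and 0.02. Without sgCtrl replicate 1 there were 12 calls instead of 19. All 8 comparisons share the same sgCtrl libraries. Fewer cells with a transcript and less of it per cell cannot be told apart in such bulk samples.

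The guides to one gene gave unlike results for several of these genes. Between the sgKDM5C guides, where 3.71% of all genes were called, DSP alone of the 7 was called, lower with #5 than with #4 by 3.63 on the log2 scale (standard error 0.54, adjusted p = 1.8e-05). Between the populations labelled sgKDM5D, where 20.8% of all genes were called, 5 of the 7 were. With #4 compared with #2, DSG2 was higher by 1.94 (adjusted p = 4.2e-18), DSC2 by 7.95 (adjusted p = 2.1e-11, from 1 count with #2), DSP by 3.56 (adjusted p = 0.00036, from 2 counts with #2) and PKP3 by 0.83 (adjusted p = 3.0e-07), and JUP differed by -2.37 (adjusted p = 5.2e-09), all on the log2 scale. The DSP call was lost without sgKDM5D #2 replicate 1 (adjusted p = 0.0037) or 2 (adjusted p = 0.0026) or sgKDM5D #4 replicate 3 (adjusted p = 0.0038), and with DESeq2 (adjusted p = 0.0015). The PKP2 values differed by -1.12 between the sgKDM5C guides and by -0.41 between those of sgKDM5D, with no test.

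The interaction asks whether the double mutant populations departed from the sum of both single genotypes. With a call at an adjusted p under 0.05, which 26.5% of all genes reached, 4 of the 7 genes were called. PKP4 (0.44, adjusted p = 2.6e-05), DSP (2.82, adjusted p = 0.0019) and JUP (0.70, adjusted p = 0.019) were higher in the double mutants than that sum on the log2 scale, and DSG2 was lower (-0.46, adjusted p = 1.6e-05). JUP did not pass without the 4 libraries listed last (0.64, adjusted p = 0.078). For DSP, DSG2 and JUP the single genotype means join guides with opposite values, and the DSP double mean joins 1 high population with 3 whose values lay between -2.60 and 0.29. Among the double mutants themselves the log2 differences of DSP from sgKDM5C #4/sgKDM5D #2 were -3.35 in sgKDM5C #4/sgKDM5D #4 (adjusted p = 8.3e-09), -5.59 in sgKDM5C #5/sgKDM5D #2 (adjusted p = 8.4e-11) and -6.25 in sgKDM5C #5/sgKDM5D #4 (adjusted p = 2.2e-11). JUP was called lower in sgKDM5C #5/sgKDM5D #4 than in each of the other 3 double mutants, with log2 differences of -1.79 to -1.06. PKP3 was called lower in sgKDM5C #5/sgKDM5D #2 than in the other 3, by differences of -0.86 and -0.67 from those with sgKDM5C #4 and of 0.62 in sgKDM5C #5/sgKDM5D #4 over it.

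RefSeq promoter entries of GRCh38.p14 were found for 8 of the 10 genes, all but PKP2 and PKP3, with 11 start sites. The 250 bases before each start had 12 to 34 CpG dinucleotides, beside a median of 11 over 35116 promoters of the same length, and a G and C content of 59.6% to 78.0%, beside a median of 58.0%. The letters CAGGTG, an E-box of the kind bound by SNAI and ZEB repressors of epithelial genes, were searched on both strands (CACCTG on the other). They were present in 4 of the 11 windows, beside 17.5% of all promoters, and these belonged to DSP, DSG2, DSC2 and JUP. The windows are printed 5′ to 3′ on the strand of the gene, with these E-box letters in capitals, because they show the sequence that the 4 genes have in common. DSC2 and JUP each have a second start site whose window did not hold these letters. A match is a description of the sequence and not a binding site.
DSP (chr6:7541421-7541670, plus strand): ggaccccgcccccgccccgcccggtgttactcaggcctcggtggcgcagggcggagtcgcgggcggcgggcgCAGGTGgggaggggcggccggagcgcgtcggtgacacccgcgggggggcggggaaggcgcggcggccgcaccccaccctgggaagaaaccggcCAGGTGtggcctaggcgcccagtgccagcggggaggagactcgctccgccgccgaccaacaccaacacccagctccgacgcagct
DSG2 (chr18:31497927-31498176, plus strand): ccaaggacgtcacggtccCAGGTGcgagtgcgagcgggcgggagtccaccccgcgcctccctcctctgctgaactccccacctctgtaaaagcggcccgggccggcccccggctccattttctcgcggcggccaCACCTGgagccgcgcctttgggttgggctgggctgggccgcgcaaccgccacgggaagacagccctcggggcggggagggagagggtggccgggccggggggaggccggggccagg
DSC2 (chr18:31102422-31102671, minus strand): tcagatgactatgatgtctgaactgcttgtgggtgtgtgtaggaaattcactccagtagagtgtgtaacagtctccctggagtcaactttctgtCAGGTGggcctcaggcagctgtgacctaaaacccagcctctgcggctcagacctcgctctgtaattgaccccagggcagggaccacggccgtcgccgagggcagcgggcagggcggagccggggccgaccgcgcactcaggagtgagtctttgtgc
JUP (chr17:41785977-41786226, minus strand): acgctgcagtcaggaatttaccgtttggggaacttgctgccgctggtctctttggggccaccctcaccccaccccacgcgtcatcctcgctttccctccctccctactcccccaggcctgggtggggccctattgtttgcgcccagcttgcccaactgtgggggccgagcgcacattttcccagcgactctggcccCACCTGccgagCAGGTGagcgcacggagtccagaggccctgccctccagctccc

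Over the 9 population means of log2 CPM, the genes most like PKP2 among 1663 that varied enough to be compared were TAGLN, LINC01843, RNF182, MGAT4A and SAA1, with Pearson r of 0.94, 0.92, 0.88, 0.86 and 0.86. TAGLN encodes an actin-binding protein of smooth muscle, MGAT4A a glycosyltransferase of N-glycan branching and SAA1 an acute-phase protein. TAGLN was at 4.45 CPM in sgCtrl, 1.24 to 1.98 CPM in the single mutant populations and 5.47 CPM in sgKDM5C #4/sgKDM5D #4. The least alike were KCNA7, PORCN and MAP3K9-DT, with r of -0.84, -0.84 and -0.83. PORCN, an enzyme that acylates Wnt proteins, was at 24.4 CPM in sgCtrl, at 69.8 CPM in the population labelled sgKDM5D #4 and at 17.4 CPM in sgKDM5C #4/sgKDM5D #4. These correlations rest on 9 points that share libraries and were picked from many genes, so they are given with no p. Of the desmosome genes, PKP4 (0.54) and DSP (0.47) had the highest r with PKP2 and DSC2 (-0.31) the lowest. DSG2 and DSC2 had an r of 0.86 with each other.

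**Figure D5:**
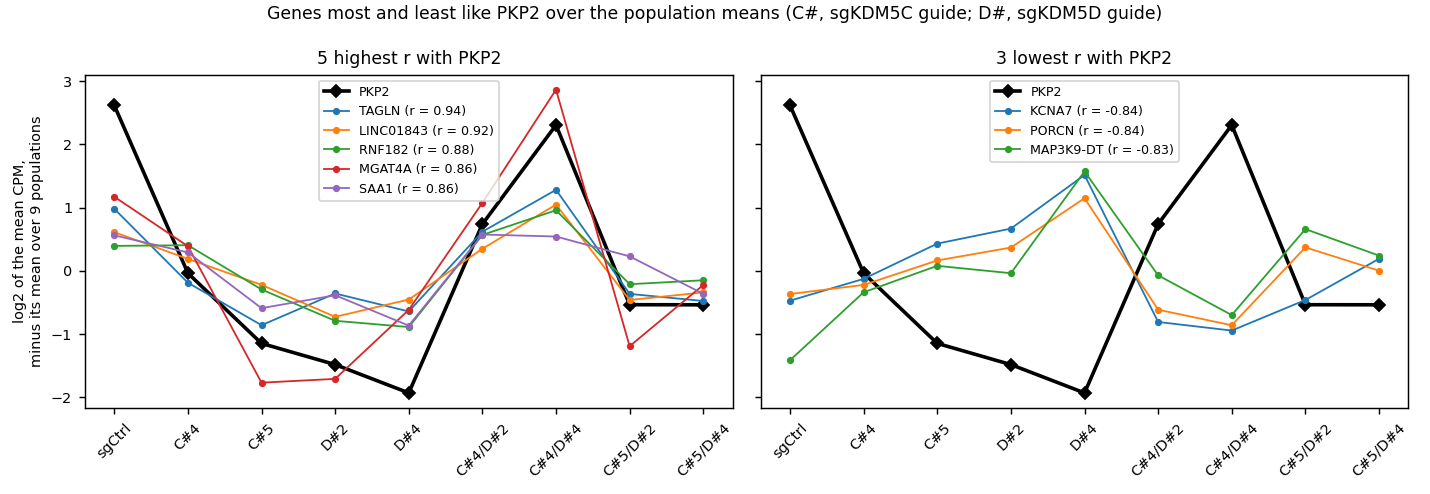
Population means (log2 of the mean CPM, centred on the mean over 9 populations) of PKP2 and of the 5 genes with the highest and the 3 with the lowest r with it. The lines join categories only to guide the eye. TAGLN lies between 1.24 and 1.98 CPM in the single mutants and at 5.47 CPM in sgKDM5C #4/sgKDM5D #4, while RNF182, at 6.88 CPM in sgKDM5C #4 and 6.83 CPM in sgCtrl, departs from the PKP2 pattern in that single mutant.

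The genes around the desmosome were read from lists of other junction and filament genes. Beside the counts below, the share of all tested genes called in a population ran from 3.23% (labelled sgKDM5D #2) to 18.1% (labelled sgKDM5D #4). Genes named singly were picked for calls in at least 2 populations, and how often other genes reach such numbers was not tested. The other desmosomal cadherins, DSG1, DSG3, DSG4 and DSC1, were nearly absent and none was tested. Of 25 intermediate filament genes 12 were tested, and between 0 and 3 were called higher and 0 and 4 lower per population. The 4 lower were in sgKDM5C #5, beside 5% of all genes called, and in sgKDM5C #5/sgKDM5D #2, beside 12.7%. KRT8 and KRT18, the keratin pair of simple epithelia that desmoplakin anchors, were highest in sgCtrl, at 993 ± 41.2 and 107 ± 14.2 CPM (SD, n = 3), and were called lower in 2 and 3 of the 8 populations (mean log2 fold change -0.50 and -0.53). KRT81 and NES were called lower in 6 and 4 populations, and KRT81 higher in 1. Of 8 plakin and cornified envelope genes 6 were tested. PLEC, the plakin of hemidesmosomes, was called higher in 6 populations, with a lowest population mean of 1225 CPM, that of sgCtrl, and a highest of 2302 CPM. DST was called higher in 2 and EVPL, envoplakin, lower in 2.

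Among 21 adherens junction genes, of which 16 were tested, between 0 and 5 were called higher and 0 and 1 lower per population. The largest number was in the population labelled sgKDM5D #4, where 18.1% of all genes were called, the highest share of the 8. ARVCF, a catenin related to the plakophilins, was called higher in 4 populations, and CDH6, a cadherin of the proximal tubule, in 3 (mean log2 fold change 0.63 and 0.76). CDH13 was called higher in 2 populations and lower in 2, and NECTIN1 higher in 2 and lower in 3. Of 23 tight junction genes 17 were tested, with 0 to 4 called higher and 0 to 4 lower per population, both largest numbers again in the population labelled sgKDM5D #4. CGNL1 and MARVELD2 were called higher in 5 populations each and JAM2 in 3. Of 9 genes of gap junctions and the intercalated disc 6 were tested, and ANK3, ankyrin-G, which binds PKP2 in heart muscle, was called higher in 6 populations (1.89 CPM in sgCtrl, 21.4 CPM in the population labelled sgKDM5D #4). GJA1, connexin 43, was called higher in 1 and lower in 3, and GJB2 higher in 1 and lower in 2. All 7 hemidesmosome genes were tested, with COL17A1 lower in 2 populations and LAMB3 higher in 2. Of 18 epithelial transcription factors 9 were tested, and GRHL1, an activator of desmosomal cadherin genes in skin, was called lower in 5 populations and was highest in sgCtrl, at 5.44 ± 0.225 CPM. SNAI2, a repressor of epithelial genes, was called lower in 2 and KLF4 higher in 2.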

How the data were processed

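The 27 libraries were made with a stranded RNA kit and sequenced as read pairs. The authors deposited raw counts per Ensembl gene. The submitters' processing notes name Trimmomatic 0.38, STAR 2.5.2b and GRCh37, and the counting tool, its strand setting and the annotation are not given in the sources used here, so reads of DSG2 and PKP4 and of their antisense genes (143 and 185 counts in all) cannot be told apart. Symbols and exon lengths came from a GENCODE annotation lifted to GRCh37, which held 55538 of the 57773 identifiers.

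Of all 57773 identifiers, 17016 genes with at least 120 counts in all were fitted with edgeR 4.0.16 in R 4.3.3 (TMM factors, 1 mean per population, quasi-likelihood test, two-sided, Benjamini-Hochberg adjustment over all 17016). Calls needed an adjusted p under 0.001 and over 1.5-fold, interactions an adjusted p under 0.05. The fit was tested on simulated data. DESeq2 1.42.0, other scalings and filters, a replicate block, left-out libraries and the subtraction of the median change of 50 neighbouring genes were alternatives. The desmosome genes, the other gene lists and the tests were chosen with earlier results of these data known. Other genes were named by rule: the 5 highest and 3 lowest r with PKP2 (highest population mean of at least 2 CPM, SD of at least 0.5), up to 4 genes per list with the largest mean change among those called in at least 2 populations in one direction, and 5 neighbours on each side of PKP2. CNTN1, CDH2, RIOK1, SNRNP48 and BMP6 were named after their values were seen, and 1 gene that the rule names is not reported here. Intervals of count ratios and floors cover counting error only, and intervals of fold changes come from the fit and include the spread between libraries.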

Additional observations from a re-analysis of the deposited data

Results flagged for a closer look

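Differences that passed the test between populations made with different guides to the same gene were set apart. Between the sgKDM5C guides (#5 minus #4) this was DSP, at -3.63 on the log2 scale. Between the populations labelled sgKDM5D (#4 minus #2) these were DSC2 at 7.95, DSP at 3.56, DSG2 at 1.94, PKP3 at 0.83 and JUP at -2.37.

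Among the double mutants, PKP2 differed by 1.57 between sgKDM5C #4/sgKDM5D #4 and sgKDM5C #4/sgKDM5D #2, by -1.26 and -1.27 between the populations with sgKDM5C #5 (with sgKDM5D #2 and #4) and sgKDM5C #4/sgKDM5D #2, and by -2.83 and -2.84 between the same populations and sgKDM5C #4/sgKDM5D #4. DSP differed from sgKDM5C #4/sgKDM5D #2 by -3.35, -5.59 and -6.25 in sgKDM5C #4/sgKDM5D #4, sgKDM5C #5/sgKDM5D #2 and sgKDM5C #5/sgKDM5D #4, and by -2.90 between the last and sgKDM5C #4/sgKDM5D #4. JUP in sgKDM5C #5/sgKDM5D #4 differed by -1.06, -1.15 and -1.79 from sgKDM5C #4/sgKDM5D #2, sgKDM5C #4/sgKDM5D #4 and sgKDM5C #5/sgKDM5D #2, and by 0.73 between sgKDM5C #5/sgKDM5D #2 and sgKDM5C #4/sgKDM5D #2. PKP3 in sgKDM5C #5/sgKDM5D #2 differed by -0.67 from sgKDM5C #4/sgKDM5D #2 and by -0.86 from sgKDM5C #4/sgKDM5D #4, and sgKDM5C #5/sgKDM5D #4 was higher than it by 0.62 on the log2 scale.

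The interaction was past its threshold for PKP4 (0.44), DSP (2.82), JUP (0.70) and DSG2 (-0.46). Outside the tests, DSG1, a desmoglein of stratified epithelia with 48 counts in all, had 17, 18 and 9 counts in the 3 libraries of sgKDM5C #4/sgKDM5D #2 (a mean of 0.537 CPM), 4 counts in the other 24 libraries and 0 in sgCtrl. This is the population in which DSP was high, and the summed level of the 6 keratinocyte markers, DSG1 among them, was 0.991 CPM there and at most 0.626 CPM elsewhere. DSG1 itself gave 0.537 CPM of that sum, and none of the other markers was highest in this population. TP63 (0.358 CPM), DSG3 (0.195 CPM) and DSC1 (0.0338 CPM) were highest in sgKDM5C #4. KRT5 (0.211 CPM) was highest in the population labelled sgKDM5D #4 and KRT14 (0.0228 CPM) in sgCtrl. The part of these markers in the DSP result was not tested. Groups of 3 samples were too small to look for single outlying libraries.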

How the results depend on the processing

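The mean change of PKP2 in the double mutants kept its direction and its call under every alternative run, all of which use sgCtrl libraries that also served to choose PKP2. Without one library at a time it lay between -2.16 and -2.07. The 19 calls of the other genes became 12 to 20 without one library, the 4 interactions 4 to 5, the 6 calls between guides 5 to 6 and the 5 PKP2 pairs 3 to 5. RLE factors and edgeR's filterByExpr left these 4 counts as they were, and fits limited to the groups of each comparison gave 14 calls, losing DSC2, JUP and PERP in sgKDM5C #5, DSP in sgKDM5D #2 and DSC2 in sgKDM5C #4/sgKDM5D #2. Subtracting the neighbouring genes left 16 calls, without PKP3 in sgKDM5C #4 (0.44) and DSC2 (2.60) and PERP (0.31) in sgKDM5C #5 and PKP4 in sgKDM5D #2 (-0.26), and DSP between the sgKDM5D guides (3.21) was no longer called, while PKP3 in sgKDM5D #2 (-0.71) was gained and the interactions numbered 6. The replicate numbers did not mark pairs, since deviations of same-numbered libraries had a median correlation of -0.021. With them as a replicate block the mean change of PKP2 was -2.12, and there were 18 calls, 4 interactions, 6 calls between guides and 4 PKP2 pairs. The call against sgCtrl lost with the block was DSP in sgKDM5D #2 (adjusted p = 0.0012). No result reversed under any alternative. DSP, DSC2 and, in the single mutants, PKP2 are limited by depth: 3 counts correspond to 0.0698 to 0.143 CPM. Where other causes of a lost call are not shown above, the cause was not tested.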

Other observations

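PKP2 was a small part of plakophilin transcripts throughout. On levels per length, it made up 2.64% of the summed level of PKP1 to PKP4 in sgCtrl, 1.53% in sgKDM5C #4/sgKDM5D #4 and 0.116% to 0.570% in the other populations. PKP4 made up 50.8% to 68.9% and PKP3 28.5% to 47.7%. The summed level was lowest in the population labelled sgKDM5D #2, at 16.3 CPM per kilobase, and highest in sgKDM5C #4/sgKDM5D #4, at 33.2, beside 23.8 in sgCtrl.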
